A study of Caenorhabditis elegans with 34 samples.

Results

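The step from day 5 to day 6 of life was examined in whole Caenorhabditis elegans by RNA-seq, with 3 samples taken on day 6 and 3 taken on day 5, out of 34 samples in the series. All 6 samples came from animals that carried hc88, a temperature-sensitive allele of spe-9 that prevents fertilization. The animals were grown on E. coli OP50 at 25 °C, where this strain leaves no progeny. No drug or other genotype entered the comparison. Larvae synchronised by hypochlorite were spread over plates, 1 plate was harvested every 24 hours, and the procedure was repeated 3 times, so that each sample pooled the animals of 1 plate and the samples of a day were separate populations. The comparison asks how the transcriptome of the average population differs over 1 day of mid-adulthood, and whether the differences hold without day 5 replicate 3, a sample that stood apart from the others.

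The adult worm consists of somatic tissues that no longer divide around a germline that goes on making oocytes. Its intestine digests bacteria, makes the yolk proteins taken up by oocytes, and secretes lysozymes, saposin-like proteins, lectins and proteases that act on bacteria in the gut. The hypodermis secretes the collagens and cuticlins of the cuticle. Inducible heat shock genes are kept low in unstressed animals and are switched on when proteins misfold.

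Between 19361214 and 22341743 counts per sample fell on 20222 genes, and 13865 genes were kept as detected because 75% or more of the 31 samples from day 2 to day 12 had 5 or more counts. Values below are TMM-scaled CPM, the usual per-library scale for read counts, which corrects for depth and composition but not for gene length. Markers of intestine, muscle, pharynx, neurons, hypodermis, germline, oocytes, sperm and embryos were detected in these whole-body samples, except ceh-22, rol-6, spe-38, spe-9 and med-1.

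Day 5 replicate 3 differed from the other day 5 populations in its yolk, germline and mitochondrial transcripts. The 6 vitellogenin genes took 1.95%, 0.838% and 1.39% of the counts in day 6 replicates 1 to 3, against 2.67%, 3.38% and 0.457% in day 5 replicates 1 to 3. Summed germline markers were at 1052 CPM in day 5 replicate 3, against 2337 and 1931 CPM in the other day 5 samples, and the range over day 6 was 1665 to 2299 CPM. Genes encoded by mitochondrial DNA took 2.204% of its counts, against 0.980% to 1.43% in the remaining 5 samples. Its long transcripts were low and its short ones high, with a slope of −0.329 log2 CPM per doubling of transcript length, where the other samples had slopes of −0.0950 to 0.221. Over detected genes its Spearman correlation was 0.965 and 0.971 with the other day 5 samples, which reached 0.985 with each other, and it was highest, 0.978, with day 6 replicate 2. Its part in the results was followed by leaving it out, and what set it apart was not tested.

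**Figure D1:**
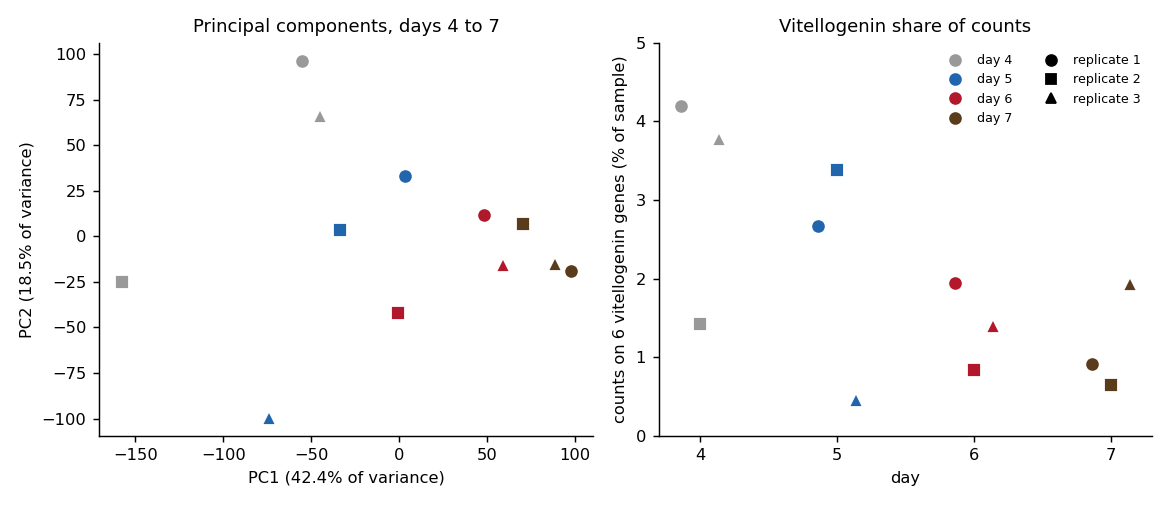
Left, the first 2 principal components of detected genes (PC1, 42.4% and PC2, 18.5% of the variance) for the 12 samples of days 4 to 7, 1 point per sample, with colour for the day and shape for the replicate. Right, the share of each sample's counts that fell on the 6 vitellogenin genes, in percent. Day 5 replicate 3 lies lowest on PC2 and has the lowest vitellogenin share, 0.457%.

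No single gene passed the threshold between day 6 and day 5. With edgeR's quasi-likelihood test and Benjamini-Hochberg adjustment, 0 genes were higher and 0 were lower on day 6 at an adjusted p under 0.05 (0% of 13865 in each direction), and the lowest adjusted p was 0.162. At an unadjusted p under 0.05, 816 genes were higher (5.89% of those tested) and 434 were lower (3.13%), so that 65.3% of these genes were higher on day 6. With scaling by library size alone the numbers were 1128 higher and 257 lower, or 81.4% higher, while the median log2 fold change of all detected genes was 0.05 in place of 0.01.

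The count of 0 differed between tools and between sets of samples. The Wald test of DESeq2 on the same 6 samples called 101 genes higher (0.728%) and 28 lower (0.202%) at an adjusted p under 0.05. A fit of edgeR with day as a factor over all 31 samples, which takes the spread from the whole series, called 74 genes higher (0.534%) and 0 lower, where 1362 genes were higher (9.82%) and 822 lower (5.93%) at an unadjusted p under 0.05. The same edgeR test on 6 samples gave 0 calls for day 5 over day 4 and for day 7 over day 6 too, with 1418 and 1831 genes at an unadjusted p under 0.05, against 1250 for day 6 over day 5.

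When day 5 replicate 3 was left out, 0 genes again passed the adjusted threshold of edgeR's quasi-likelihood test, and the lowest adjusted p was 0.0882. At an unadjusted p under 0.05, 859 genes were then higher (6.2%) and 623 lower (4.49%). Of the genes higher at that level 562 were shared, 68.9% of the 816 and 65.4% of the 859, and of the lower ones 285 were shared, 65.7% of the 434 and 45.7% of the 623. The sign of the fold change turned in 2028 detected genes (14.6%), none of which had an unadjusted p under 0.05 in the 6 samples. DESeq2 without this sample, an alternative chosen after seeing the data, called 156 genes higher (1.13%) and 74 lower (0.534%), among them 75 of the 101 and 18 of the 28.

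The inducible heat shock genes were the list with the highest median. All 9 detected members of 9 were higher on day 6 at an unadjusted p under 0.05, with and without day 5 replicate 3, against 5.89% and 6.2% of all detected genes, and in 8 of 9 the day 6 samples lay above every day 5 sample, as was the case for 8.42% of detected genes. Their median log2 fold change was 0.96, and 1.04 without day 5 replicate 3, beside 0.01 for all detected genes in each case. None passed after adjustment in the 6 samples, while 6 of the 9 passed in the edgeR fit of all 31 samples and 5 by DESeq2.

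F44E5.4 and F44E5.5, neighbouring Hsp70-family genes on chromosome II (WBcel235, chrII:11757107-11759311 on the minus strand and chrII:11759662-11761861 on the plus strand), had the largest difference of the list. F44E5.4 was at 89.6, 167 and 249.9 CPM in day 6 replicates 1 to 3, against 29.6, 43.96 and 50.1 CPM in day 5 replicates 1 to 3. Its groups did not overlap, and the lowest day 6 sample lay above the highest day 5 sample. The log2 fold change was 2.05 ± 0.38 (SE, n = 3 each, 4.14-fold) with an adjusted p of 0.306 by edgeR's quasi-likelihood test, and 2.22 without day 5 replicate 3. F44E5.5 had nearly the same count in every sample and a log2 fold change of 2.05 as well. Their sequences are near-identical, and reads could have been divided between them or counted for each, so the values do not show that each gene was higher on its own.

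The hsp-16 genes encode small heat shock proteins that bind unfolded proteins. On chromosome V, 2 copies of hsp-16.1 (WBGene00002015 and WBGene00002017) and 2 of hsp-16.48 (WBGene00002019 and WBGene00002020) lie together between positions 9087293 and 9090604 of WBcel235, and the members of each duplicate pair cannot be told apart by these counts. The hsp-16.1 copy WBGene00002017 was at 87.3, 127 and 131 CPM on day 6, against 56.1, 52.8 and 70.7 CPM on day 5 (log2 fold change 0.96, and 1.10 without day 5 replicate 3). The hsp-16.48 copy WBGene00002019 was at 112, 149 and 157 CPM on day 6, against 77.4, 68.8 and 95.9 CPM on day 5 (log2 fold change 0.80, and 0.95 without that sample). In each of these genes all day 6 samples exceeded all day 5 samples.

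A second hsp-16 locus on the same chromosome holds hsp-16.2 and hsp-16.41, which lie head to head between positions 1804334 and 1805875. Expression of hsp-16.2 was 33.6, 54.1 and 51.3 CPM on day 6, against 23.4, 22.3 and 33.1 CPM on day 5 (log2 fold change 0.83). Expression of hsp-16.41 was 28.9, 48.1 and 47.3 CPM on day 6, against 22.8, 19.1 and 34.8 CPM on day 5 (log2 fold change 0.71). It was the only member whose groups overlapped, since day 5 replicate 3 lay above day 6 replicate 1, and without that sample its log2 fold change was 1.00.

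The remaining member, hsp-70 (chrI:9320325-9322519), encodes a heat-inducible Hsp70. It was at 10.9, 10.7 and 11.9 CPM on day 6, against 6.41, 4.70 and 5.58 CPM on day 5. Each group was tight, and the log2 fold change was 1.02 ± 0.20 (SE, adjusted p = 0.327 by edgeR's quasi-likelihood test) with day 5 replicate 3 and 1.02 without it. For all 9 genes the mean of day 4 lay below that of day 5 and the mean of day 7 above that of day 6. F44E5.4, for example, averaged 9.83 CPM on day 4 and 388 CPM on day 7, and hsp-16.2 averaged 7.18 and 62.9 CPM on those days.

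**Figure D2:**
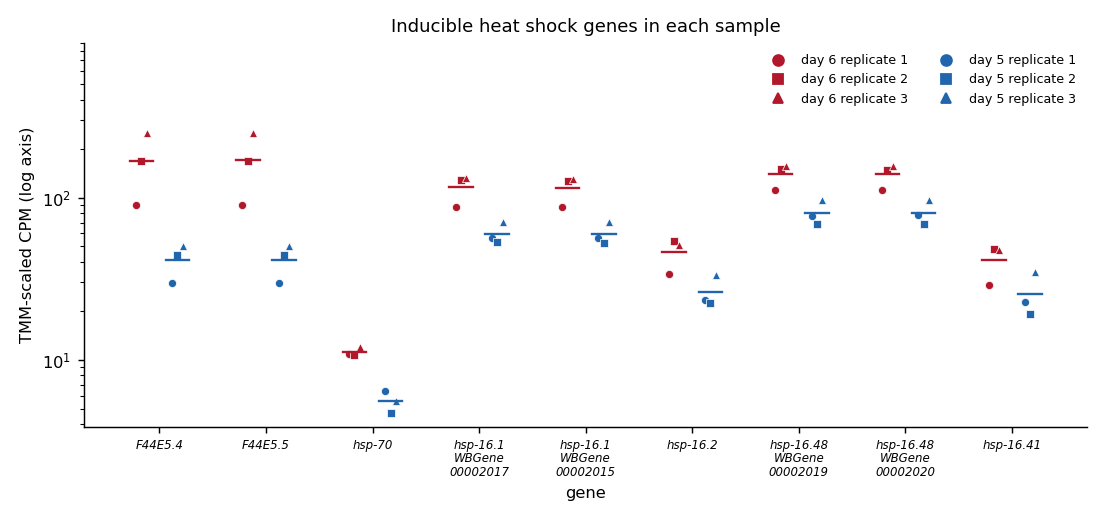
TMM-scaled CPM on a log axis for the 9 inducible heat shock genes, day 6 left of day 5 for each gene, with 1 point per sample and a line at the mean of 3. In 8 genes the 3 day 6 points lie above the 3 day 5 points, and in hsp-16.41 they overlap.

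Other chaperone lists lay closer to all genes. Of 25 constitutive chaperones, 0 were higher and 2 lower at an unadjusted p under 0.05, against 5.89% and 3.13% of all detected genes. Their median log2 fold change was −0.06, or −0.15 without day 5 replicate 3. The most abundant of them were sip-1, a small heat shock protein, at 2561, 2268 and 1786 CPM on day 6 against 2781, 2826 and 1961 CPM on day 5, and hsp-1, the constitutive cytosolic Hsp70. Expression of hsp-1 was 2652, 1778 and 1804 CPM on day 6, against 2767, 3347 and 683 CPM on day 5, a spread on day 5 that came from replicate 3. Of 22 genes for endoplasmic reticulum chaperones and the unfolded protein response, 4 were higher and 0 lower at that level, with a median of 0.13. These 4 include hsp-70, which is counted in the heat shock list as well, and after the length trend was removed 2 were higher and the median was −0.04. The mitochondrial unfolded protein response had 0 of 13 in either direction.

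Among all genes with a mean of at least 100 counts, the smallest p-values of the higher direction belonged to rrf-2, a member of the RNA-dependent RNA polymerase family that makes small RNAs (chrI:12098664-12106112). It was at 34.8, 32.7 and 45.2 CPM on day 6, against 13.3, 13.6 and 11.2 CPM on day 5. The groups were far apart, with a log2 fold change of 1.58 ± 0.19 (SE, n = 3 each, 2.99-fold, adjusted p = 0.162 by edgeR's quasi-likelihood test) and 1.50 without day 5 replicate 3. The trend of expression with transcript length differed between the samples, as given above. With that trend removed in each sample, the log2 fold change of rrf-2, a transcript of 4844 bases, was 0.83. The value was 1.22 when day 5 replicate 3 was left out as well, a fit chosen after seeing the data. Expression of rrf-2 averaged 4.75 CPM on day 4 and 66.9 CPM on day 7.

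The next was tir-1 (chrIII:3869590-3901642), the worm orthologue of SARM1, which acts upstream of the p38 MAP kinase of innate immunity. It was at 99.5, 108 and 135 CPM on day 6, against 42.6, 48.5 and 44.4 CPM on day 5, with no overlap and a log2 fold change of 1.35 ± 0.17 (SE, adjusted p = 0.162 by edgeR's quasi-likelihood test). The log2 fold change of tir-1 was 1.34 without day 5 replicate 3, 0.76 with the length trend removed and 1.11 with both. Also among these 10 genes was nipi-3 (chrX:15607969-15610623), a Tribbles-family pseudokinase needed to induce antimicrobial peptides of the skin upon infection. It was at 78.2, 69.6 and 96.8 CPM on day 6, against 41.3, 36.2 and 27.4 CPM on day 5 (log2 fold change 1.24, and 1.09 without day 5 replicate 3).

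The other genes of this group were ncam-1, a homologue of neural cell adhesion molecules (log2 fold change 1.32), olrn-1, which acts in the asymmetry of the AWC olfactory neurons (1.08), and lido-10 (1.39), W03F9.4 (1.61), ZC21.10 (1.81), F53C3.6 (1.32) and F44F1.6 (1.63). In all 10 the day 6 samples lay above every day 5 sample, and all 10 kept their direction without day 5 replicate 3. With the length trend removed ncam-1 was at 0.57 and no longer had an unadjusted p under 0.05, while the other 9 had log2 fold changes of 0.76 to 1.97 and kept one. With day 5 replicate 3 left out as well, ncam-1 was at 1.12. The 10 genes were picked by their p-value in this comparison, so their separation describes the choice.

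In the lower direction the smallest p-value belonged to asm-3, an acid sphingomyelinase (chrIV:520214-523809). It was at 21.05, 18.2 and 17.9 CPM on day 6, against 41.8, 37.8 and 41.7 CPM on day 5. All samples of a day were close together, and the log2 fold change was −1.07 ± 0.15 (SE, n = 3 each, 0.476-fold, adjusted p = 0.199 by edgeR's quasi-likelihood test), or −1.05 without day 5 replicate 3. The thaumatin-family gene thn-2 (chrIV:12383170-12383974) was at 66.1, 80.5 and 52.0 CPM on day 6, against 139.6, 169 and 163 CPM on day 5 (log2 fold change −1.23). The infection response gene irg-4 (chrIV:12435833-12438236) was at 37.4, 42.0 and 46.5 CPM on day 6, against 126, 76.6 and 102 CPM on day 5 (log2 fold change −1.27). Its mean was 458 CPM on day 4 and 24.5 CPM on day 7, each of the means of days 5 to 7 being below that of the day before.

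The remaining genes of this direction were far-8, a fatty acid and retinol binding protein (log2 fold change −0.81), clec-80, a C-type lectin (−1.32), hacd-1, of the hydroxyacyl-CoA dehydrogenase family (−1.17), and drd-50 (−1.05), dct-17 (−0.99), F42A10.7 (−0.91) and Y65B4BR.1 (−1.18). In each of the 10 every day 6 sample lay below every day 5 sample, with and without day 5 replicate 3. All 10 were among the 28 genes that DESeq2 called lower. Chosen after their values were seen, further genes of those 28 were thn-1, of the same family as thn-2 (log2 fold change −1.05), asm-2, another acid sphingomyelinase (−0.87), irg-3, an infection response gene (−0.87), adh-1, of the alcohol dehydrogenase family (−1.42), clec-86 (−1.24), the saposin-like gene spp-23 (−1.19) and the cathepsin B-like protease gene cpr-1 (−1.39).

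**Figure D3:**
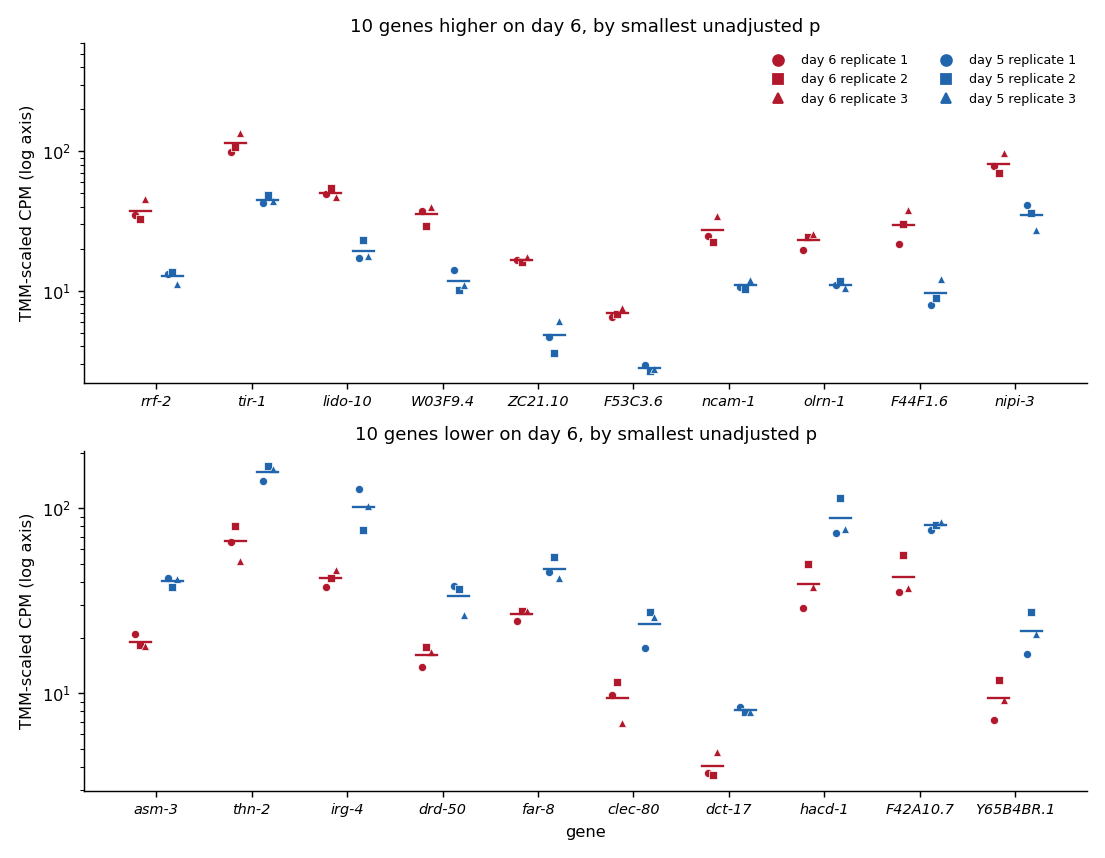
TMM-scaled CPM on a log axis for the 10 genes with the smallest unadjusted p in the higher direction (top) and the 10 in the lower direction (bottom), day 6 left of day 5, with 1 point per sample and a line at the mean of 3. The groups do not overlap in any of the 20 genes, which were chosen by this contrast.

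The 74 genes called higher in the edgeR fit of all 31 samples had log2 fold changes between 0.50 and 3.79 in the 6 samples, with a median of 1.15. All 74 had an unadjusted p under 0.05 with and without day 5 replicate 3. In all 74 the day 6 samples lay above the day 5 samples, as was the case for 8.42% of detected genes. The fit that gave the 74 contains these 6 samples, so the separation and the small p-values describe the choice. With day 5 replicate 3 left out of that fit, an alternative chosen after seeing the data, 63 genes were called (0.454%), of which 37 were shared, 50% of the 74 and 58.7% of the 63. The mean of day 4 was below that of day 5 in 67 genes, the mean of day 7 was above that of day 6 in 68, and both held in 62. Their median transcript length was 2061 bases, against 1359 bases over detected genes. After a trend with transcript length was removed, 604 of all detected genes with a known length were higher (4.37%) and 532 lower (3.85%) at an unadjusted p under 0.05. In that fit 71 of the 72 with a known length stayed positive and 67 kept such a p. The exception was nurf-1, a chromatin remodelling subunit, at 0.69 before and −0.35 after. With the length trend removed and day 5 replicate 3 left out as well, nurf-1 was at 0.36.

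Chosen after their values were seen, this group included sqst-1, the worm p62, a receptor that hands ubiquitinated cargo to autophagosomes. It was at 193, 164 and 224 CPM on day 6, against 104, 112 and 61.2 CPM on day 5 (log2 fold change 1.08, and 0.86 without day 5 replicate 3, which held the lowest value). Other members were vhp-1, a phosphatase of stress-activated MAP kinases (log2 fold change 1.05), cyd-1, the D-type cyclin (0.97), pat-9, a zinc finger protein of muscle (1.46), fmi-1, the Flamingo cadherin (1.63, or 0.78 with the length trend removed), and cst-1 and cst-2, near-identical kinases related to Hippo (0.69 and 0.72), whose reads could have been divided between them. Of 20 autophagy and lysosome regulators, 2 were higher and 0 lower at an unadjusted p under 0.05, against 5.89% and 3.13% of all detected genes. The median of that list was 0.13, and sqst-1, picked for its values, lay above it.

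Genes of intestinal digestion and defence lay on the lower side. Here, as throughout these bulk samples, fewer cells of a type and less RNA per cell cannot be told apart. Of 34 detected lysozyme and saposin-like genes (46 in the table), 33 had a negative fold change, against 49.1% of all detected genes, and 11 were lower and 0 higher at an unadjusted p under 0.05, against 3.13% and 5.89%. In 6 all day 6 samples lay below all day 5 samples, which held for 7.8% of detected genes. Their median log2 fold change was −0.56, or −0.41 without day 5 replicate 3, when 8 were lower at that level. The most abundant, lys-7, a lysozyme, was at 1346, 1762 and 1546 CPM on day 6, against 1609, 2137 and 2883 CPM on day 5 (log2 fold change −0.50, and −0.25 without day 5 replicate 3). The groups overlapped, and the highest value was that of day 5 replicate 3. The saposin-like spp-5 was at 353, 568 and 384 CPM on day 6, against 553, 737 and 724 CPM on day 5 (log2 fold change −0.61, and −0.55 without that sample).

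All 21 detected gut proteases had a negative fold change, against 49.1% of all detected genes. At an unadjusted p under 0.05, 6 were lower and 0 higher, against 3.13% and 5.89%. In 2 of the 21 all day 6 samples lay below all day 5 samples, near the 7.8% of all detected genes. Leaving out day 5 replicate 3 gave 18 negative and 3 positive, where all detected genes were 48.9% and 51.1%. In that fit 12 gut proteases were lower at that level, against 4.49% of all detected genes. The median log2 fold change was −0.64 in the 6 samples and −0.73 in the 5. The cathepsin B-like cpr-1 was at 285, 442 and 288 CPM on day 6, against 617, 1474 and 611 CPM on day 5. Every day 6 value lay below every day 5 value, although day 5 replicate 2 was far above its group. The aspartic proteases asp-1 and asp-6, the most abundant of the list, did not separate. Expression of asp-1 was 685, 485 and 428 CPM on day 6, against 987, 2037 and 334 CPM on day 5 (log2 fold change −1.05, and −1.48 without day 5 replicate 3). Expression of asp-6 was 731, 615 and 593 CPM on day 6, against 955, 1505 and 423 CPM on day 5 (−0.55, and −0.91 without it). In both, day 5 replicate 3 was the lowest of the 6 samples and day 5 replicate 2 the highest.

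C-type lectins, many of which are secreted from the gut, were lower in 11 and higher in 3 of 95 at an unadjusted p under 0.05, where 3.13% and 5.89% of all detected genes were, with 66 negative and a median log2 fold change of −0.32. The most abundant, clec-87, was at 2465, 2860.0 and 2035 CPM on day 6, against 2865, 3476 and 2799 CPM on day 5 (log2 fold change −0.30). It was followed by clec-209, for which the table holds 2 entries with nearly the same counts (log2 fold change −0.86 each). Of 27 infection response genes, 9 were lower and 5 higher at that level, so this list moved both ways, with a median of −0.42. Its most abundant members were dod-19, at 213, 200.3 and 213 CPM on day 6 against 262, 208 and 261 CPM on day 5, and zip-2, a transcription factor of the infection response, at 255, 246 and 268 CPM on day 6 against 185, 210.0 and 109.9 CPM on day 5. The fold change of zip-2 was positive (log2 0.62, and 0.40 without day 5 replicate 3) with no overlap, unlike that of irg-3 and irg-4. Of 21 detected antimicrobial peptides of the skin, 20 had a negative fold change, 1 was lower at an unadjusted p under 0.05 and the median was −0.34, beside the positive value of nipi-3 above.

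Intestinal markers were followed beside these lists. They summed to between 214 and 246 CPM on day 6, against 316, 484 and 228 CPM in day 5 replicates 1 to 3, so that day 5 replicate 3 lay within the range of day 6. All 7 had negative fold changes, with 1 lower at an unadjusted p under 0.05, ges-1, the gut esterase (log2 fold change −0.71). By sample, the lysozyme and saposin-like list was highest of day 5 in replicate 3, where intestinal markers were lowest of day 5. Gut proteases were highest of day 5 in replicate 2, as were intestinal markers. The part of the tissue's share of RNA in the lists above was not tested. Among GATA factors of gut and skin the intestinal elt-2 and elt-7 had log2 fold changes of −0.11 and −0.18 and elt-4, at about 1 CPM or less in each sample, −0.81, while elt-1, elt-3, elt-6 and egl-18 of the hypodermis had 0.45, 0.32, 0.27 and 0.35. Only elt-1 of these 7 had an unadjusted p under 0.05, at 23.4, 21.1 and 23.9 CPM on day 6 against 16.6, 14.98 and 19.2 CPM on day 5. The 5 metallothionein and ferritin genes were all negative: ftn-2 at −0.48, mtl-2 at −0.42, cdr-1 at −0.31, ftn-1 at −0.22 and mtl-1 at −0.15, with ftn-2, a ferritin, below 0.05 in its unadjusted p.

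**Figure D4:**
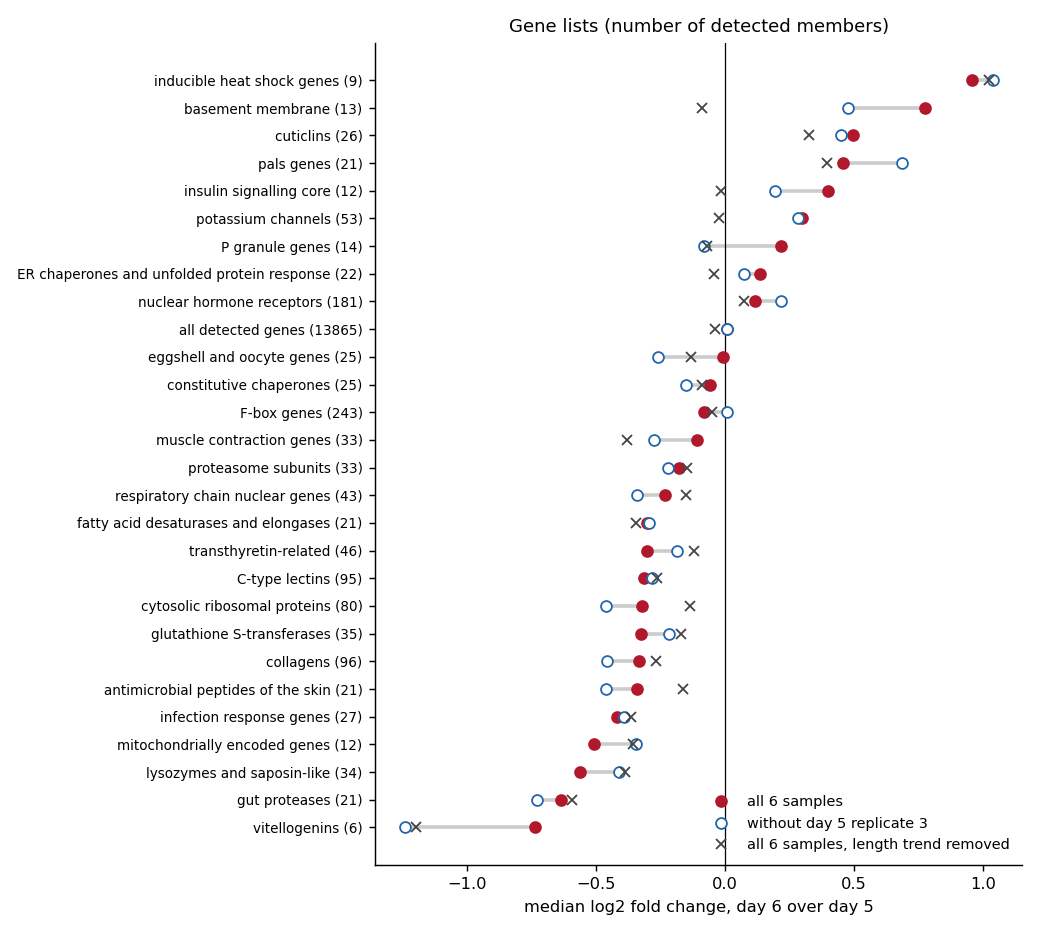
Median log2 fold change, day 6 over day 5, of 27 gene lists and of all 13865 detected genes, with the number of detected members in brackets. Filled points use all 6 samples, open points leave out day 5 replicate 3, and crosses use all 6 samples after a trend with transcript length was removed. The heat shock list stays highest, while the P granule and F-box lists lie on the other side of zero without day 5 replicate 3.

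Yolk genes varied most between the day 5 samples. The vitellogenins are yolk proteins made in the intestine and taken up by oocytes. Expression of vit-2 was 6333, 2184 and 3352 CPM on day 6, against 8217, 11409 and 1249.8 CPM on day 5. Expression of vit-6 was 5160.3, 1769 and 3056 CPM on day 6, against 7463, 10948 and 981 CPM on day 5. In both genes the day 5 samples bracketed those of day 6, with replicates 1 and 2 above all day 6 samples and replicate 3 below them. The log2 fold changes of vit-1 to vit-6 were −1.26, −0.80, −0.67, −0.67, −0.65 and −0.94, and none of the 6 had an unadjusted p under 0.05. With day 5 replicate 3 left out they were −1.78, −1.29, −1.18, −1.19, −1.14 and −1.45, and all 6 were under it, against 4.49% of detected genes lower at that level. With all 6 samples and the length trend removed, 4 of the 6 genes were under it, against 3.85% of genes, and the median log2 fold change was −1.196 in place of −0.74. The genes vit-3 and vit-4 had nearly equal counts and share sequence, so that their values are not independent. Without day 5 replicate 2, the sample with the highest yolk share, each of these genes had a positive log2 fold change (0.093 for vit-4 and 0.091 for vit-3).

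Germline lists shifted with the same sample. Of 14 P granule genes 11 had a positive fold change with it (median log2 0.22), against 50.9% of detected genes, and 4 had one without it (median −0.08). The RNA-binding protein genes car-1 and cgh-1 were the most abundant. Expression of car-1 was 1024, 661 and 709.5 CPM on day 6, against 1304, 1357 and 237 CPM on day 5. Expression of cgh-1, an RNA helicase of germ granules, was 1016, 614 and 845 CPM on day 6, against 1196, 932 and 203 CPM on day 5, so that its log2 fold change was 0.10 with day 5 replicate 3 and −0.35 without it. In both genes that sample was the lowest of the 6. Eggshell and oocyte genes, with 0 of 25 at an unadjusted p under 0.05 in either direction, had a median of −0.01 with it and −0.26 without it, and 24 of 25 were then negative. The chondroitin proteoglycan gene cpg-2 was at 4525, 3890.1 and 3039 CPM on day 6, against 4962, 4913 and 2698 CPM on day 5. The 26 meiosis genes had medians of 0.02 and 0.01 and 0 at that level in either direction.

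Several long genes of the extracellular matrix were higher on day 6. Of 13 basement membrane genes 4 were higher and 0 lower at an unadjusted p under 0.05, against 5.89% and 3.13% of detected genes, and the 4 were laminin subunits: lam-1 (beta), lam-2 (gamma), and lam-3 and epi-1 (alpha). Expression of lam-1 was 108, 103 and 158 CPM on day 6, against 71.0, 63.3 and 41.7 CPM on day 5 (log2 fold change 1.09, and 0.89 without day 5 replicate 3). Expression of lam-3 was 21.4, 16.9 and 19.9 CPM on day 6, against 11.8, 6.41 and 2.88 CPM on day 5 (1.49, and 1.11 without it). In all 4 subunits the groups did not overlap, and lam-2 and epi-1 had log2 fold changes of 1.09 and 1.00. The most abundant genes of the list did not share this, since let-2, a chain of type IV collagen, was at 217, 78.4 and 106 CPM on day 6 against 158, 159.7 and 30.7 CPM on day 5 (log2 fold change 0.22, and −0.24 without day 5 replicate 3), and ost-1, the worm SPARC, had a log2 fold change of −0.06.

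The laminin values moved with transcript length, which differed between the samples as given above. The list's median transcript length was 5715 bases, and its median log2 fold change was 0.78 in the 6 samples, 0.48 without day 5 replicate 3 and −0.09 after the length trend was removed, when 2 were higher and 1 lower, epi-1 turned to −0.09 and lam-1 was at 0.28. With the length trend removed and day 5 replicate 3 left out as well, the median was 0.22, so its turn to a negative value did not hold without that sample. The insulin signalling core, with 11 of 12 genes positive and 0 at an unadjusted p under 0.05 in either direction, had a median of 0.40, 0.19 without day 5 replicate 3 and −0.02 after the length trend was removed (0.08 with that sample left out as well). Potassium channels had 8 higher and 3 lower of 53 at that level, against 5.89% and 3.13% of detected genes, and 4 and 4 after the length trend was removed, when their median of 0.30 became −0.02 (0.10 with day 5 replicate 3 left out as well). The channel gene kqt-1, of the KCNQ family, was at 16.8, 21.9 and 25.4 CPM on day 6, against 8.04, 9.40 and 10.6 CPM on day 5, with a log2 fold change of 1.21 before and 0.86 after. The potassium channel gene twk-5 lay in the other direction at −0.36.

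Cuticlins, the non-collagen proteins of the cuticle and their relatives, were higher in 7 and lower in 0 of 26 at an unadjusted p under 0.05, against 5.89% and 3.13% of detected genes, and after the length trend was removed 3 were higher. Of the 26, 21 were positive and 10 had all day 6 samples above all day 5 samples, against 8.42% of detected genes. Their median log2 fold change was 0.50, 0.45 without day 5 replicate 3 and 0.32 after the length trend was removed. Chosen after its values were seen, cutl-2 was at 11.3, 9.83 and 11.0 CPM on day 6, against 5.78, 5.17 and 6.52 CPM on day 5 (log2 fold change 0.89). The most abundant members did not separate, with cutl-16 at 29.9, 45.5 and 35.6 CPM on day 6 against 26.4, 30.6 and 37.6 CPM on day 5, and cutl-20 at a log2 fold change of 0.07.

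Collagens of the cuticle varied with another sample. Of 96 detected collagens 66 had a negative fold change, and the median was −0.34. At an unadjusted p under 0.05, 3 were lower and 6 higher, near the shares of all detected genes (3.13% and 5.89%). Expression of col-122, the most abundant, was 195, 462 and 224 CPM on day 6, against 337, 1159 and 186 CPM on day 5. Expression of col-181 was 135, 468 and 244 CPM on day 6, against 247, 916 and 264 CPM on day 5. In col-19, a collagen of the adult cuticle, values were 27.6, 101 and 41.1 CPM on day 6, against 58.8, 403 and 80.7 CPM on day 5. In all of these day 5 replicate 2 was the highest sample and day 6 replicate 2 the second, and col-122 and col-181 turned to positive fold changes without day 5 replicate 2. The list had 21 lower and 7 higher without day 5 replicate 3, when 4.49% and 6.2% of all detected genes were.

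Body wall muscle transcripts were high in the same day 5 sample. Muscle markers summed to between 430 and 580 CPM on day 6, against 650, 1065 and 471 CPM in day 5 replicates 1 to 3, and hypodermal markers to between 163 and 220 CPM on day 6, against 188, 504 and 170 CPM. Of 33 muscle contraction genes, 0 were higher and 3 lower at an unadjusted p under 0.05, against 5.89% and 3.13% of all detected genes. Without day 5 replicate 3 these were 0 and 11, against 6.2% and 4.49%. The medians were −0.11 and −0.28. The body wall myosin gene unc-54 was at 94.0, 40.4 and 43.7 CPM on day 6, against 97.5, 159 and 18.2 CPM on day 5 (log2 fold change −0.61, −1.09 without day 5 replicate 3, and −1.18 with the length trend removed). The actins act-2 and act-3, the most abundant of the list, each had a log2 fold change of −0.11. The pharyngeal markers, in contrast, summed to between 45.5 and 48.3 CPM on day 6, above the 37.04, 43.2 and 42.4 CPM of day 5, and the pharyngeal myosin myo-2 had a log2 fold change of 1.00 with overlapping groups (unadjusted p = 0.0904 by edgeR's quasi-likelihood test). The 5 detected pharyngeal markers went both ways, with 3 positive and 2 negative, or 4 and 1 without day 5 replicate 3. Their median log2 fold change was 0.58, 0.28 without that sample and 0.04 after the length trend was removed. Neuronal markers summed to between 416 and 510 CPM on day 6, against 485, 579 and 412 CPM on day 5. Of 26 neurotransmitter and vesicle genes 3 were higher and 0 lower at an unadjusted p under 0.05, with a median of 0.09. Without day 5 replicate 3 they were higher in 3 and lower in 3, with a median of 0.18. After the length trend was removed they were higher in 1 and lower in 0.

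Genes for ribosomal proteins and respiration mostly had small negative fold changes. Of 31 aminoacyl-tRNA synthetases, 21 were positive in the 6 samples, with a median log2 fold change of 0.13, or −0.13 after the length trend was removed. Without day 5 replicate 3, 13 of them were positive and 18 negative, with a median of −0.01. Of 80 cytosolic ribosomal protein genes 79 had a negative fold change, against 49.1% of all detected genes, and the median log2 fold change was −0.32. At an unadjusted p under 0.05, 0 were lower or higher, against 3.13% and 5.89%. In the 5 samples without day 5 replicate 3, 79 were again negative, against 48.9% of all detected genes, with a median of −0.46. Then 25 were lower at that level, against 4.49% of all detected genes. Expression of rpl-10 was 2253, 2438 and 1829 CPM on day 6, against 2469.9, 3469 and 2677 CPM on day 5 (log2 fold change −0.39, with no overlap). Expression of rpl-3 was 2473, 2359 and 1999 CPM on day 6, against 2706, 3603 and 1875 CPM on day 5 (−0.24, with overlap). Ribosomal protein transcripts are short, at a median of 513.5 bases, and the list's median was −0.14 after the length trend was removed. With day 5 replicate 3 left out as well, that median was −0.30.

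At an unadjusted p under 0.05, where 3.13% of all detected genes were lower, mitochondrial ribosomal proteins had 62 of 69 negative and 4 lower (median −0.17, or −0.05 with 0 lower after the length trend was removed), proteasome subunits 29 of 33 negative and 0 lower (median −0.18), and nuclear genes of the respiratory chain 39 of 43 negative and 1 lower (median −0.23). Among the last, atp-2, a subunit of ATP synthase, was at 1555, 1465 and 1304 CPM on day 6, against 1802, 2250.5 and 566 CPM on day 5. Its log2 fold change was −0.08 with day 5 replicate 3, the lowest sample, and −0.47 without it. All 12 detected genes of the mitochondrial DNA were negative, with a median of −0.51, or −0.35 without day 5 replicate 3, in which they were highest, and 1 had an unadjusted p under 0.05. COX3, a subunit of cytochrome c oxidase, was at 2331, 2854 and 1879 CPM on day 6, against 2774, 2876 and 4032 CPM on day 5. These transcripts were read here from poly(A)-selected RNA.

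Lipid and detoxification genes leaned lower. Of 21 desaturases and elongases 3 were lower and 1 higher at an unadjusted p under 0.05, beside 3.13% and 5.89% of all detected genes, with a median of −0.30 with and without day 5 replicate 3. The desaturase fat-2, which makes linoleic acid, was at 541, 851 and 692 CPM on day 6, against 850.0, 1035 and 1042 CPM on day 5 (log2 fold change −0.47), and fat-1, an omega-3 desaturase, had −0.23. Of 35 glutathione S-transferases 5 were lower and 1 higher, with a median of −0.33, or −0.17 after the length trend was removed, and the most abundant, gst-7 and gst-1, had log2 fold changes of −0.38 and −0.32. Transthyretin-related genes were lower in 6 and higher in 0 of 46, with 39 negative and a median of −0.30, which was −0.12 after the length trend was removed. Without day 5 replicate 3 they were lower in 3 and higher in 1, against 4.49% and 6.2% of all detected genes. Then 32 were negative and the median was −0.19.

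Families of regulators gave counts from near those of all genes to above them. The pals genes, of which several are induced by microsporidia and viruses, were higher in 5 and lower in 0 of 21 at an unadjusted p under 0.05, against 5.89% and 3.13% of detected genes (median 0.46), and higher in 10 without day 5 replicate 3, against 6.2% (median 0.69). Chosen after its values were seen, pals-4 was at 6.56, 6.22 and 5.24 CPM on day 6, against 3.21, 3.25 and 3.79 CPM on day 5 (log2 fold change 0.82). The most abundant members were pals-24, with a log2 fold change of −0.38, and pals-34, at 6.78, 7.17 and 8.58 CPM on day 6 against 3.73, 3.15 and 9.56 CPM on day 5. The last value, that of day 5 replicate 3, set the overlap, and the log2 fold change of pals-34 was 0.46 with it and 1.14 without it. Nuclear hormone receptors were higher in 13 and lower in 1 of 181 (median 0.12), near the 5.89% of detected genes in the higher direction, and higher in 23 and lower in 2 without day 5 replicate 3. The most abundant was nhr-49, a regulator of fat metabolism, at 131, 121 and 156 CPM on day 6 against 113, 85.2 and 96.9 CPM on day 5 (log2 fold change 0.48, with no overlap, or 0.28 with the length trend removed). F-box genes were higher in 14 and lower in 7 of 243, close to the shares of all detected genes in the 6 samples. Without day 5 replicate 3 they were higher in 25 and lower in 4, against 6.2% and 4.49% of all detected genes.

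Set beside their neighbours, the lists of day 6 mostly lay between day 5 and day 7. For the heat shock list the median deviation from the mean of days 5 and 6 was −2.46 to −1.66 log2 over the 3 samples of day 4, −0.63 to −0.21 on day 5, 0.09 to 0.63 on day 6 and 1.15 to 1.25 on day 7, and no neighbouring days overlapped. For lysozymes and saposin-like genes it was −0.10 to 0.74 on day 4, −0.01 to 0.54 on day 5, −0.57 to 0.08 on day 6 and −1.08 to −0.75 on day 7, with overlap between each of the first 3 days. Cuticlins were at 0.04 to 0.36 on day 6, above −0.34 to −0.05 on day 5, while day 7, at −0.11 to 0.17, overlapped with day 6. These values were compared by their ranges only.

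**Figure D5:**
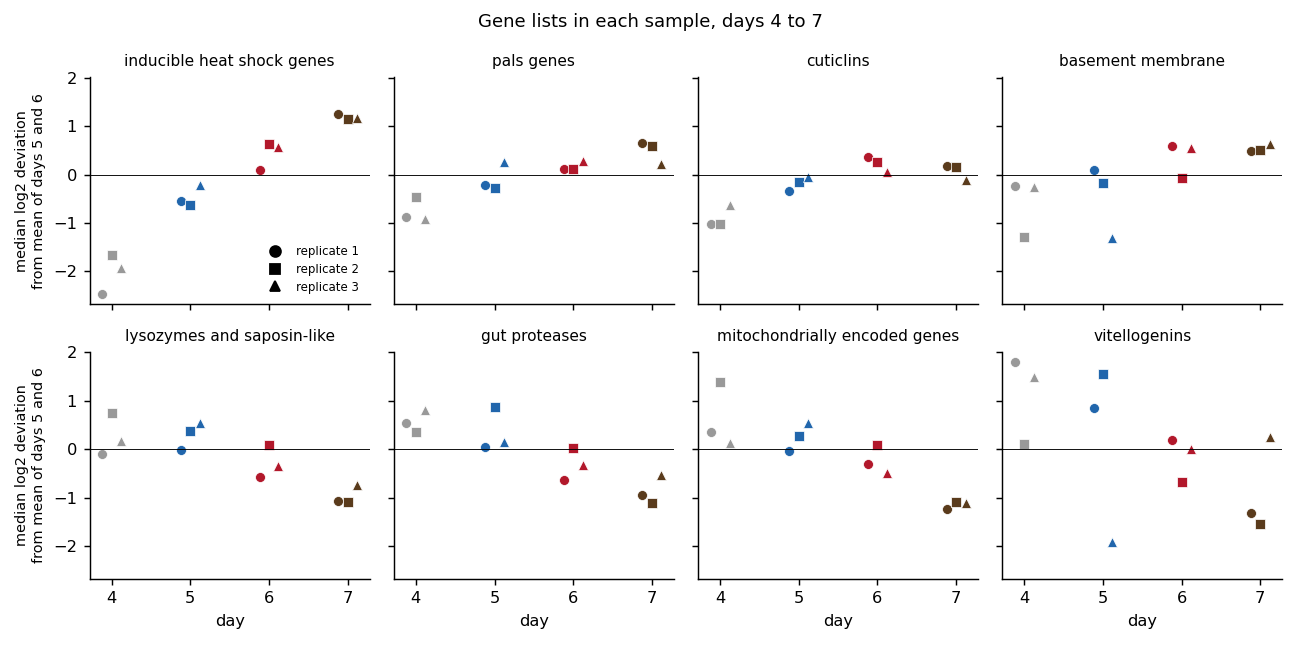
Median over the members of each of 8 gene lists of the log2 CPM deviation from the gene's mean over the 6 samples of days 5 and 6, for the 12 samples of days 4 to 7, 1 point per sample and shape for the replicate. Heat shock genes lie higher on each later day, and in the vitellogenin and basement membrane panels day 5 replicate 3 lies at −1.92 and −1.30, below the other samples of its day.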

How the data were processed

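RNA from whole animals was enriched with oligo(dT) beads, depleted of rRNA and copied with random hexamers. The authors deposited raw counts of reads per gene in whole numbers, without normalization. Their processing notes name STAR 2.7.3a, featureCounts and WBcel235, and the annotation and strand handling are not given in the sources used here, so overlapping genes may share reads. Symbols, positions and transcript lengths came from Ensembl 115.

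Groups follow the day that the labels state. Counts of 13865 detected genes (at least 5 counts in 75% of 31 samples) were scaled by TMM and tested with the quasi-likelihood test of edgeR 4.0.16 in R 4.3.3, day 6 over day 5, with Benjamini-Hochberg adjustment and a threshold of 0.05. Printed CPM use TMM factors of the 31 samples and are shown without a pseudocount. A further entry of the table, transgene, stayed out of the tests. DESeq2 1.42.0, all 31 samples, other scalings and filters, a replicate block, each sample left out and removal of a loess trend with transcript length were alternatives. That trend was fitted in each sample to the log2 CPM deviations from the gene means, and was taken out of each sample within the fit. Figures and tables were made with Python 3.11.15, pandas 2.3.3, NumPy 2.4.6 and matplotlib 3.10.9. The edgeR step was tested on simulated data.

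The members and the 55 gene lists were chosen with earlier results of these data known. Named were the 10 genes in each direction with the smallest unadjusted p and a mean of at least 100 counts, since none passed, members of lists with at most 8 members, and for other lists the 2 most abundant members, not all of which are printed. Genes outside this rule are said to be chosen after their values were seen, and the members of the heat shock list are all given. The depth of 19361214 to 22341743 counts per sample leaves a gene at 5 counts with large counting error. With 3 samples a day an exact permutation test of a single value cannot go below p = 0.10, and p-values measure the spread between populations.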

Additional observations from a re-analysis of the deposited data

Results flagged for a closer look

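The table holds 1 entry that is not a worm gene, named transgene, which the comparison did not use. It had 20, 12 and 5 counts in day 6 replicates 1 to 3, or 37 in all, against 16, 36 and 2 counts in day 5 replicates 1 to 3, or 54 in all, and was listed because it lies above the limit that a count of 0 allows. The strain of these samples is given without a transgene in the labels, and the source of the counts was not tested.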

How the results depend on the processing

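The counts of 0 higher and 0 lower genes stayed at 0 with DESeq2's size factors, scaling by library size, no filter on low counts, a stricter filter, a threshold of 0.01, the length trend removed, and each of the 6 samples left out in turn. Calls appeared, higher and lower, with the DESeq2 Wald test (101 and 28), with all 31 samples (74 and 0), and, chosen after seeing the data, without day 5 replicate 3 in DESeq2 (156 and 74), in 30 samples (63 and 0) and with the length trend removed (8 and 3). Among members of the gene lists these 5 settings called 32, 11, 58, 17 and 2. Replicates of a number were not stated to come from the same repeat. Their deviations correlated at 0.489, 0.0691 and −0.0566, which does not settle whether they did. With the replicate number as a block 0 and 0 genes passed, and, chosen after seeing the data, the block without day 5 replicate 3 gave 275 and 301, with 180 members of lists. The number of list members tested is not given here. The counts of members called therefore do not show whether members were called more or less often than other genes. The cause of the differences between settings was not tested.

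Signs turned for some named genes, none of which passed in the 6 samples. With each sample left out in turn, log2 fold changes ranged over both signs for mtl-1 (−0.41 to 0.089), act-3 (−0.44 to 0.20), act-2 (−0.43 to 0.20), cdr-1 (−0.70 to 0.018), vit-4 (−1.19 to 0.093), vit-3 (−1.18 to 0.091), elt-2 (−0.31 to 0.038), col-181 (−1.30 to 0.15), let-2 (−0.31 to 0.52), ost-1 (−0.20 to 0.025), col-122 (−1.40 to 0.17), hsp-1 (−0.54 to 0.27), cutl-20 (−0.12 to 0.32), car-1 (−0.72 to 0.051), unc-54 (−1.10 to 0.040), atp-2 (−0.47 to 0.28), cpg-2 (−0.35 to 0.021) and cgh-1 (−0.35 to 0.57). Scaling by library size put act-3 at 0.0011, ost-1 at 0.00, hsp-1 at 0.022 and atp-2 at 0.049. The replicate block put act-3 at 0.014, act-2 at 0.0021, hsp-1 at 0.15, car-1 at 0.051 and atp-2 at 0.13, and the block without day 5 replicate 3 put elt-7 at 0.033, mtl-1 at 0.15, cdr-1 at 0.14, let-2 at −0.26 and cgh-1 at −0.40. Removal of the length trend put mtl-1 at 0.037, let-2 at −0.35, epi-1 at −0.089, nurf-1 at −0.35 and cgh-1 at −0.055, and, with day 5 replicate 3 left out as well, elt-7 at 0.082, mtl-1 at 0.045, ftn-1 at 0.057, let-2 at −0.60 and cgh-1 at −0.47. In 30 samples let-2 was at −0.25 and cgh-1 at −0.37, and in DESeq2 without day 5 replicate 3 they were at −0.24 and −0.36. Genes under 1 CPM, such as cdr-1, have few counts in a sample and a large counting error.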

Other observations

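Further gene groups are set here against all detected genes, of which 5.89% were higher and 3.13% lower at an unadjusted p under 0.05. Histones, many of them near-identical in sequence and so uncertain one by one, were higher in 5 and lower in 0 of 69 at an unadjusted p under 0.05, with a median log2 fold change of 0.16, higher in 10 and lower in 1 without day 5 replicate 3, and higher in 15 and lower in 0 after the length trend was removed (median 0.38), where 4.37% of genes were higher. Major sperm proteins, short transcripts that also share sequence, had 26 of 33 negative with a median of −0.18, and 32 of 33 and −0.58 without that sample, while the median was 0.05 after the length trend was removed. With the length trend removed and that sample left out, their median was −0.36. Neuropeptide-like proteins had 52 of 66 negative with 1 higher and 0 lower, and FMRFamide-like peptides 21 of 30 negative with 0 in either direction, and the medians of −0.20 in both lists were −0.02 and −0.01 after the length trend was removed. Hedgehog-like and patched-related genes were higher in 8 and lower in 3 of 54, with a median of 0.31, or 0.15 without day 5 replicate 3, and in 2 and 4 with a median of −0.0051 after the length trend was removed. Homeobox genes were higher in 5 and lower in 0 of 42, with a median of 0.17.

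Genes of detoxification other than the glutathione S-transferases gave few values past an unadjusted p of 0.05, with 1 higher and 2 lower of 54 cytochrome P450 genes (1 and 6 after the length trend was removed) and 2 higher and 1 lower of 58 UDP-glucuronosyltransferases. Fatty acid binding proteins and lipases were lower in 6 and higher in 2 of 85, with a median of −0.12. Vacuolar ATPase subunits, aminoacyl-tRNA synthetases and genes of DNA replication had 0 in either direction among 21, 31 and 19 genes. Tubulins had a median of −0.05 with day 5 replicate 3 and −0.43 without it. Day 4 replicate 2, which is in no group of the comparison, shared several features of day 5 replicate 3. Its length slope was −0.379 log2 CPM per doubling, and 2.97% of its counts fell on mitochondrial DNA, against 1.31% and 1.41% in the other day 4 samples. Vitellogenins took 1.42% of its counts, against 4.19% and 3.78% in those samples. The median log2 deviation of its germline markers was −0.416, against 0.402 and 0.285. Its Spearman correlation with day 5 replicate 3 was 0.973, and 0.971 and 0.967 with the other day 4 samples.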
